A study of Rattus norvegicus with 43 samples.

Results

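The proteasome and ubiquitin pathway genes described here were the probes of a rat CodeLink array whose platform gene symbol starts as a proteasome subunit (Psma to Psmg), an ubiquitin-activating enzyme (Uba), a conjugating enzyme (Ube2), a HECT ligase (Ube3), an F-box protein (Fbxo, Fbxw), a cullin (Cul) or a deubiquitinase (Usp, Uch). The rule reads the symbol and no measured value, though the gene family itself was picked with earlier results of these data known. The rule gave 102 of the 8452 probes on the array, for 93 of 5628 genes with a symbol, and 5 further probes that carried several symbols were left out. Of the 102 probes, 94 were bright enough to be tested, and these 94 are the basis of every count below. The tested probes of Psme3ip1 and Usp6nl, 2 in all, matched by symbol only. They are counted among the 94 but in none of the roles below. The other 8, for Uba6, Fbxo28, Fbxw7, Uchl1, Usp20, Usp30 and the dimmer probe of Fbxw2 and of Usp6nl, had median log2 levels between 6.46 and 7.56. Fbxw7, the F-box receptor for Myc and cyclin E, was therefore on the array but not testable.

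The study measured RNA from colonic mucosa. Its male Sprague Dawley rats ate fat as corn, fish or olive oil, and the title speaks of initiation and progression stages of colon cancer. Every rat had received azoxymethane, a colon carcinogen, at 15 mg per kg body weight. The early rats were killed 12 h after an injection. The late rats were labelled 10 wk, while the treatment protocol describes a second injection followed by termination 9 wk later. The early groups held 5 rats for each oil, and the late groups held 5 rats on corn oil, 4 on fish oil and 5 on olive oil, which makes 15 early and 14 late rats in 6 groups. For 10 rats there were repeat arrays, 14 in all, which were averaged so that each rat counted once. No rat was left without carcinogen, so nothing here is a response to azoxymethane against an untreated colon. Time since injection, number of injections, age and length of feeding all differed between early and late rats and cannot be told apart. The labels call every rat a weanling and give no age in days.

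Ubiquitin is a small protein that cells attach to other proteins through a chain of 3 kinds of enzyme. An activating enzyme loads it, a conjugating enzyme carries it, and a ligase picks the substrate, often as a complex of a cullin scaffold with an exchangeable receptor such as an F-box protein. Proteins that carry suitable ubiquitin chains are unfolded by the cap of the proteasome and cut inside its barrel-shaped core, while deubiquitinases remove or trim the chains. In cells exposed to interferon, catalytic subunits of the core are exchanged for immunoproteasome subunits, which shape the peptides shown to T cells. The colonic lining renews itself continuously and lies next to immune cells.

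The arrays differed in more than diet and time. Their median signal ranged from 163 to 685 units over a background of 51 to 83, and between 84.8% and 99.8% of probes stood above noise. The spot and background areas recorded in the files split the 43 arrays into 3 scan classes, which the labels do not mention: 7 arrays with large spots, 16 with a small background ring and 20 with a large ring. The large-ring class held 3 early and 17 late arrays and the small-ring class 12 early and 4 late arrays, so scan class moved with time. By rat, large spots were read in 4 early and 2 late rats, the small ring in 11 and 2, and the large ring in 3 and 12. Differences within a class therefore rest on few rats at 1 of the times, and they take no account of oil. Large spots were read in 4 of the 6 early olive oil arrays, and in at most 1 array of any other group. Repeat arrays of 1 rat differed over the members by a median SD of 0.14 on the log2 scale when both were of the same class and by 0.36 when they were not. Values from a fit with the class as a block, called the class-blocked fit, are therefore given with the time differences, and the part of scan class in any result was not tested further. Of 13 colonocyte markers 2 were on the array, both far above the floor of 6.46: Car2, a carbonic anhydrase of surface colonocytes, with a mean log2 level of 14.02 in early rats, and Vil1, the brush border protein villin, with 13.39. RNA came from whole mucosa, so fewer cells of a type and less RNA per cell cannot be told apart.

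Between 12 h and 10 wk, with the 3 oils weighted equally, 24 of the 94 tested probes changed at an adjusted p under 0.05, against 36.9% of all 6381 tested probes. The share among the members was 25.5%, below that background. Of these 24 probes, for 23 genes, 11 were higher in late rats, against a background of 19.2% of probes, and 13 were lower, against 17.7%. All of the changes were small. The higher probes rose by 1.11-fold to 1.38-fold and the lower ones fell by 1.11-fold to 1.37-fold. The median log2 difference over the 94 probes was -0.03, and over all tested probes 0.00. By role, 5 of 16 cap probes were lower and none higher, and 5 of 22 deubiquitinase probes were higher and 2 lower. On the authors' deposited normalized intensities, tested in the same way, 9 members were higher (background 13.7%) and 1 lower (5.45%), so the balance of falls and rises depends on which values are used.

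**Figure D1:**
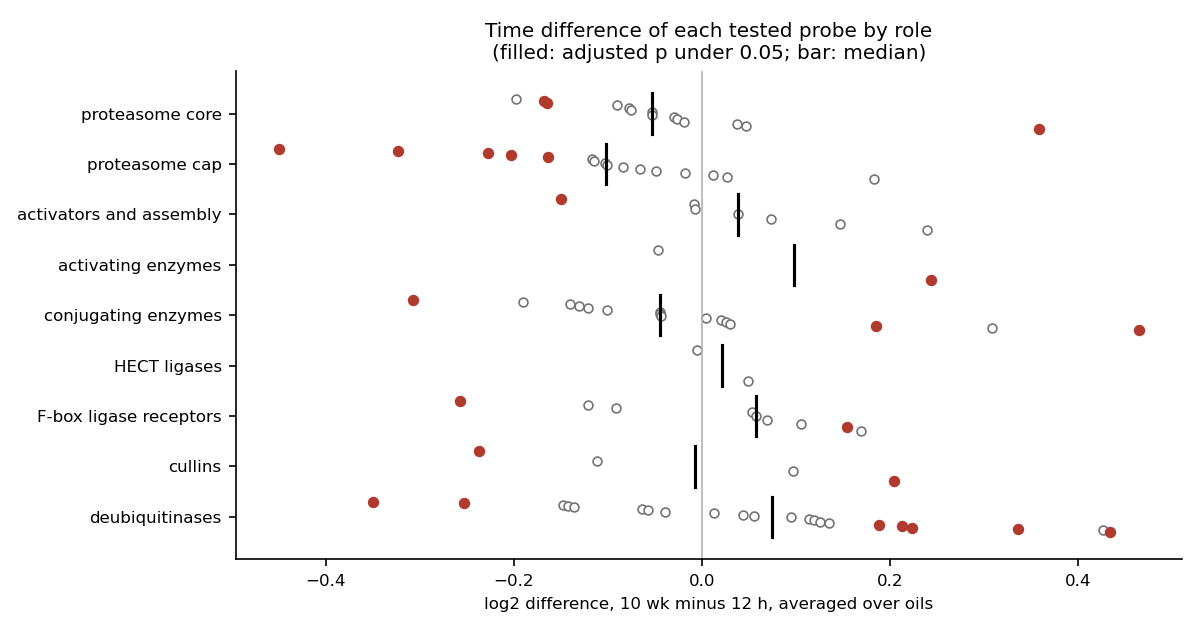
Difference in mean log2 level, 10 wk minus 12 h with the 3 oils weighted equally, of each tested probe with a role (points), grouped by role on the other axis. Of the 94 tested probes, those of Psme3ip1 and Usp6nl matched by symbol only and are not drawn. Filled points passed an adjusted p of 0.05 and bars mark the median of a role. The 16 cap probes have a median of -0.10 and none of their filled points lies above 0, and the 22 deubiquitinase probes have a median of 0.08 with 5 filled points above 0.

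Among the core subunits 1 of 14 probes rose (background 19.2%) and 2 fell (17.7%), both smaller shares than the background. The median difference was -0.05, with 11 of 14 values below 0, where 49.5% of all tested probes were. Psmb9 is an interferon-inducible catalytic subunit of the immunoproteasome. Its log2 level had a lowest, median and highest value of 9.75, 10.34 and 10.61 in the early rats, against 10.22, 10.69 and 11.07 in the late rats. The 2 time groups overlapped, but 8 of 14 late rats lay above every early rat, and 13 lay above the early mean. The mean rose from 10.28 ± 0.23 (SD, n = 15) to 10.65 ± 0.21 (SD, n = 14), a log2 difference of 0.36 ± 0.08 (SE) or 1.28-fold, with an adjusted p of 0.00175. In the class-blocked fit the difference was 0.32 (adjusted p = 0.0314), and within the large-spot, small-ring and large-ring arrays it was 0.51, 0.41 and 0.15. On the authors' deposited values it was 0.20 and not called (adjusted p = 0.304). There the Psmb9 probe holds 1 constant on the corn oil arrays, which limits what that loss of the call can say.

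Psmb10, a second immunoproteasome subunit, was not called, with a difference of -0.08 ± 0.10 (SE, adjusted p = 0.578). Psmb7, the trypsin-like catalytic subunit of the standard core, ranged from 11.56 over a median of 11.70 to 11.88 in early rats and from 11.26 over 11.52 to 11.86 in late rats. It fell by 1.12-fold (log2 difference -0.16 ± 0.06, adjusted p = 0.0232), and 9 of 14 late rats lay below every early rat. Psmb2, a core subunit without a catalytic site, ranged from 10.71 over 11.03 to 11.23 in early rats and from 10.37 over 10.93 to 11.18 in late rats, which overlapped widely. Its fall was at the edge of the threshold, with a log2 difference of -0.17 ± 0.06 (adjusted p = 0.0412), and leaving out single rats ended the call in 17 of 29 cases. A second Psmb2 probe gave -0.20 (adjusted p = 0.143). In the class-blocked fit neither Psmb7 (adjusted p = 0.207) nor Psmb2 (adjusted p = 0.27) passed, and on the deposited values none of the 14 core probes did. Some of the 14, Psmb9 and the brighter Psmb2 probe among them, hold a constant for a diet in those values. None of the 10 core probes without such a constant passed either.

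The remaining 11 core probes, for alpha ring subunits Psma1, Psma2, Psma4, Psma5 and Psma6 and beta ring subunits Psmb1, Psmb3, Psmb4 and Psmb10 beside the second Psmb2 probe, were not called. The catalytic Psmb5 and Psmb6 and the immunoproteasome subunit Psmb8 were not among the members. In each rat the median deviation of the 14 core probes from their own means was small. It ran from -0.11 to 0.15 among early rats and from -0.18 to 0.12 among late rats, so the 2 times overlapped almost entirely.

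In the cap 5 of 16 probes fell (background 17.7%), none rose (19.2%), and 13 of 16 differences were negative, where 49.5% of all tested probes were. With class as a block 2 fell and 1 rose, and 13 differences were again negative. Within the small-ring arrays alone, which held 2 late rats, most cap differences were above 0. Per rat, the median deviation of the 16 cap probes ran from -0.01 to 0.19 in early rats, with a median of 0.05, and from -0.15 to 0.12 in late rats, with a median of -0.06. It was above 0 in 14 of 15 early rats and below 0 in 11 of 14 late rats. Psmd1 is the large scaffold subunit at the base of the cap, Psmc1 one of the ATPases that unfold substrates, and Psmd9 a chaperone that helps assemble the base and leaves before the cap is complete. Psmd9 is grouped with the cap here by its symbol. With arrays scaled by their medians 3 cap probes fell (Psmd9, Psmd1 and Psmc1), and on the deposited values 1 did, Psmd1, with 11 of 16 differences negative against 41.1% of all probes.

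The proximal promoters of the 3 genes are shown because their probes had the lowest adjusted p-values of the cap. Each is the 250 bases before the RefSeq transcription start in rat build GRCr8, read 5′ to 3′ on the gene's strand: chr9:94157721-94157970 (plus strand) for Psmd1, chr12:39018265-39018514 (minus strand) for Psmd9 and chr6:125122247-125122496 (plus strand) for Psmc1. Capitals mark matches to the antioxidant response element core TGACNNNGC, which NFE2-type factors recognise in proteasome genes among others, or to the CCAAT box, on either strand.
Psmd1: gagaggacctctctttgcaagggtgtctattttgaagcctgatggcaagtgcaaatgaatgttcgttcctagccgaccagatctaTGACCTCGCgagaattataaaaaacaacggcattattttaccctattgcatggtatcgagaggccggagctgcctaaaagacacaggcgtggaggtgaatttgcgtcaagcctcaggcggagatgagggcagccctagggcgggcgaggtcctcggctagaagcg
Psmd9: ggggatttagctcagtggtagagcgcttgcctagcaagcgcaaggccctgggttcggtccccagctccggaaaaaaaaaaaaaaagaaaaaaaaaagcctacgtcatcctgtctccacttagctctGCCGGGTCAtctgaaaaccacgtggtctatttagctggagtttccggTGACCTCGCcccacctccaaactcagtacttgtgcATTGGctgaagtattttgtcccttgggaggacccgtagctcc
Psmc1: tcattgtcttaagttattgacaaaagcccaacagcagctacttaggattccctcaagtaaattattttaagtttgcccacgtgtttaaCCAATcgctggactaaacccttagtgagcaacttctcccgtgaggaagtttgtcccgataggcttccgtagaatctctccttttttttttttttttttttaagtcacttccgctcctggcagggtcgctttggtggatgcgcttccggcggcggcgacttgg
Psmd9 held 2 matches to the TGACNNNGC core, 1 on each strand, and 1 CCAAT box on the opposite strand. Psmd1 held 1 core match in the stretch printed and Psmc1 a CCAAT box only. Psmd1 and Psmd9 shared the same 9 letters, TGACCTCGC, at their plus-strand core match. A CCAAT box and the core can share a base, since the last T of 1 can be the first of the other.

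Over the window from 250 bases before to 50 bases after the start, promoters were found for 83 of the 93 member genes. The TGACNNNGC core was present in 17 of these 83 (20.5%) and in 12.1% of all 33469 promoters of the table. For the core and cap genes together it was 4 of 26 (15.4%). CCAAT, searched on both strands, was found in 31 of 83 member promoters (37.3%) against 37.5% of all promoters, and in 15 of 26 core and cap promoters (57.7%). The gamma interferon site TTCNNNGAA, which reads the same on both strands, was found in 2 of 83 (2.41%) against 8.87%. Among promoters of genes called over time, 5 of 11 lower genes and 3 of 11 higher genes held the TGACNNNGC core, and 7 of 11 and 4 of 11 held CCAAT. These are matches of letters only, and no binding was measured.

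Psmd9 had log2 levels from 8.75 over a median of 9.01 to 9.28 in early rats and from 8.54 over 8.64 to 8.93 in late rats. The times overlapped little, since 12 of 14 late rats lay below every early rat. The mean fell from 8.99 ± 0.15 (SD, n = 15) to 8.67 ± 0.11 (SD, n = 14), a log2 difference of -0.32 ± 0.06 (SE) and 1.25-fold, with an adjusted p of 0.000105. In the class-blocked fit it was -0.31 (adjusted p = 0.00163), and within the large-spot, small-ring and large-ring arrays -0.29, -0.38 and -0.34.

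Psmc1 had levels from 11.76 over 11.97 to 12.19 in early rats and from 11.52 over 11.71 to 11.92 in late rats. All 14 late rats were below the early mean, and 9 were below every early rat. The mean fell from 11.96 ± 0.12 to 11.73 ± 0.11 (SD), a log2 difference of -0.23 ± 0.05 (SE) and 1.17-fold (adjusted p = 0.000794). The class-blocked fit gave -0.23 (adjusted p = 0.00939). On the deposited values the adjusted p was 0.178 for Psmc1 and 0.0519 for Psmd9, and 0.00341 for Psmd1, which is described next.

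Psmd1 fell furthest of all members, from a mean of 8.48 ± 0.21 (SD, n = 15) to 8.06 ± 0.39 (SD, n = 14), a log2 difference of -0.45 ± 0.09 (SE) and 1.37-fold (adjusted p = 0.000544). The values by rat show where the fall lay. At 12 h the corn oil rats had log2 levels of 8.44, 8.48, 8.41, 8.65 and 8.34, the fish oil rats 8.12, 8.53, 8.50, 8.22 and 8.39, and the olive oil rats 8.77, 8.85, 8.31, 8.78 and 8.45. At 10 wk the corn oil rats had 7.79, 8.83, 8.46, 8.37 and 8.28, the fish oil rats 8.06, 8.01, 7.53 and 7.23, and the olive oil rats 8.07, 8.26, 7.90, 8.01 and 7.99. Every late fish oil and olive oil rat thus lay below every early rat of the same oil, whereas 1 late corn oil rat was above all early corn oil rats. Its array medians also differed by scan class, at 8.72 for large spots, 8.33 for the small ring and 8.01 for the large ring, and in the class-blocked fit the difference was -0.35 with an adjusted p of 0.051.

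The other cap members that fell were the ATPases Psmc3 (-0.20 ± 0.08 SE, adjusted p = 0.0413) and Psmc5 (-0.16 ± 0.06, adjusted p = 0.0229), both chosen for mention after their values were seen. Neither passed in the class-blocked fit, with adjusted p-values of 0.078 and 0.251. Psmd2, the other large scaffold beside Psmd1, went the other way without passing, at 0.18 ± 0.09 (adjusted p = 0.1), and in the class-blocked fit its difference was 0.34 (adjusted p = 0.00964). Psmd2 was also chosen after its values were seen. The lid subunits Psmd3, Psmd6, Psmd11, Psmd12 and Psmd13, the ubiquitin receptor Psmd4, the ATPases Psmc2 and Psmc4 and the chaperones Psmd5 and Psmd10 were not called, with differences from -0.12 to 0.03.

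**Figure D2:**
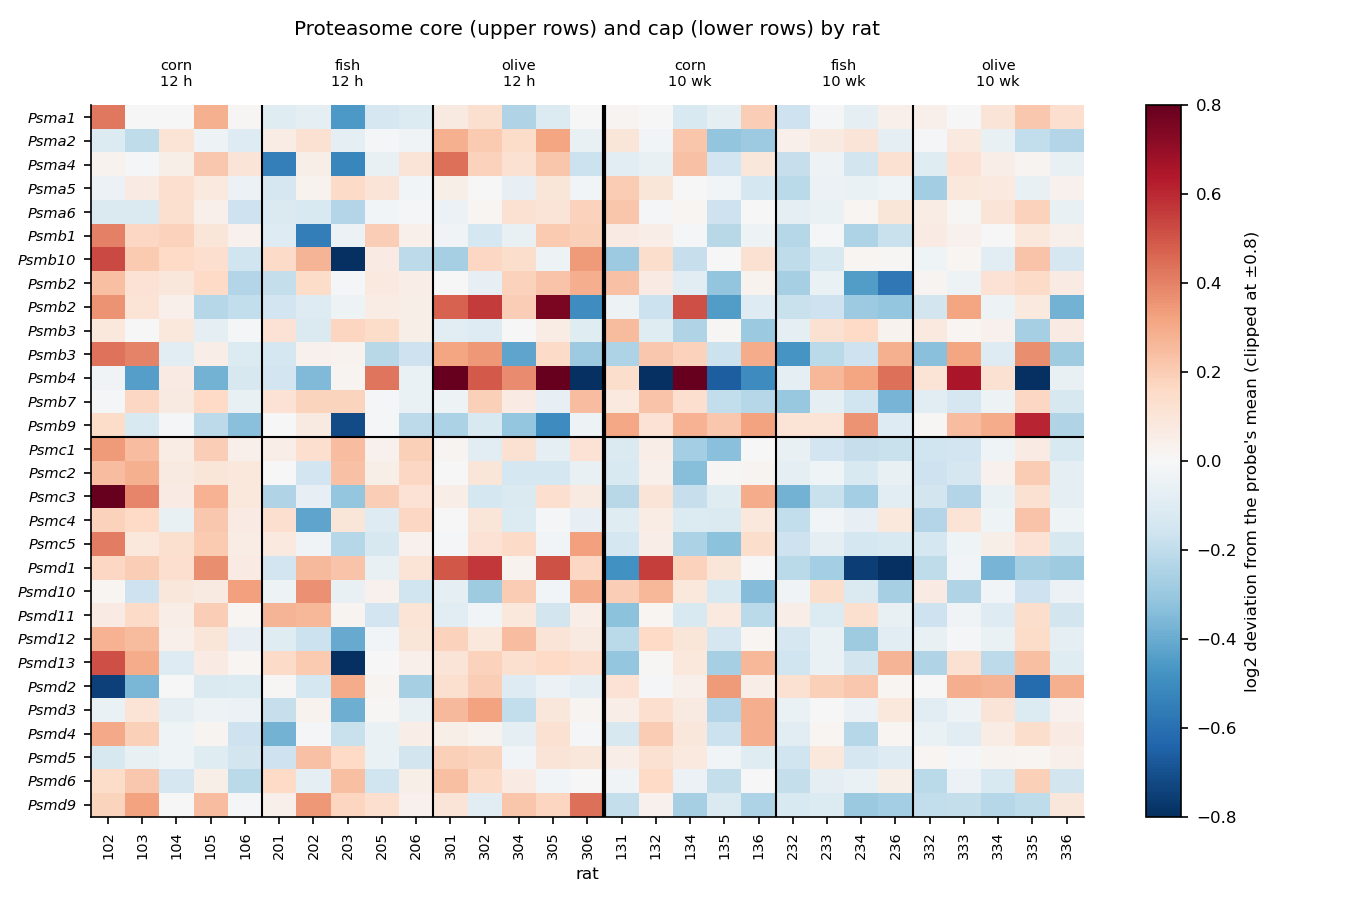
Deviation of each core probe (upper rows) and cap probe (lower rows) from its own mean over all rats, on the log2 scale and clipped at 0.8 in either direction, with 1 column per rat ordered by oil and time. The median of the cap rows lies above 0 in 14 of 15 early rats and below 0 in 11 of 14 late rats, while the core medians of the 2 times overlap almost entirely.

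Proteasome activators and assembly factors gave 1 fall (background 17.7%) and no rise (19.2%) among 7 probes, with a median of 0.04. Psme3, the nuclear activator, had log2 levels from 9.50 over 9.80 to 9.94 early and from 9.30 over 9.63 to 9.75 late. All 14 late rats were below the early mean but only 2 below every early rat, and the difference was -0.15 ± 0.05 (SE, adjusted p = 0.0245). The call was lost without late fish oil rat 234 (adjusted p = 0.0601) and in the class-blocked fit (adjusted p = 0.0731). Psme1 and Psme2 form the interferon-inducible activator that joins the immunoproteasome, and neither passed. Psme1 differed by 0.04 ± 0.05 (adjusted p = 0.56). Psme2 ranged from 11.21 over 12.33 to 12.82 early and from 12.39 over 12.58 to 12.76 late, a difference of 0.24 ± 0.11 (adjusted p = 0.0873). That of Psme2 was 0.00 in the class-blocked fit, and leaving out early corn oil rat 102 brought it past the threshold (adjusted p = 0.0309). Psme4 and the core assembly chaperones Psmg1, Psmg2 and Psmg3 were not called.

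Of the activating enzymes, Uba2 and Uba3 could be tested, and neither loads ubiquitin itself. Uba2, the catalytic subunit of the enzyme that activates SUMO, a modifier related to ubiquitin, ranged from 10.91 over 11.14 to 11.37 in early rats and from 10.81 over 11.47 to 11.63 in late rats. It rose by 1.18-fold (log2 difference 0.24 ± 0.08 SE, adjusted p = 0.013), with 12 of 14 late rats above the early mean, and the class-blocked fit gave 0.22 (adjusted p = 0.0302). Sae1, its partner subunit in the wider pathway list, differed by 0.18 (adjusted p = 0.0569), and by 0.26 in the class-blocked fit (adjusted p = 0.0174). Uba3, which activates the modifier NEDD8, differed by -0.05 (adjusted p = 0.798). The main ubiquitin-activating enzyme Uba1 was not among the members.

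Among 16 conjugating enzymes 2 rose (background 19.2%) and 1 fell (17.7%), both smaller shares than the background, and the median difference was -0.04. Ube2k, an enzyme that builds chains leading to degradation and was found as a partner of huntingtin, had the lowest adjusted p of all members. Its log2 level ranged from 7.34 over a median of 7.67 to 7.95 in early rats and from 7.69 over 8.18 to 8.43 in late rats. All 14 late rats lay above the early mean and 11 above every early rat. The mean rose from 7.68 ± 0.18 (SD, n = 15) to 8.13 ± 0.21 (SD, n = 14), by 0.46 ± 0.07 (SE) on the log2 scale or 1.38-fold (adjusted p = 1.35e-05). The class-blocked fit gave 0.42 (adjusted p = 0.00042), and within large-spot, small-ring and large-ring arrays the difference was 0.45, 0.62 and 0.26.

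The promoter of Ube2k, the member with the largest rise, is shown for contrast with those of the cap genes. It is again the 250 bases before the RefSeq start in GRCr8, at chr14:43072215-43072464 on the minus strand, and it has no capitals because none of the 3 motifs was found in it.
Ube2k: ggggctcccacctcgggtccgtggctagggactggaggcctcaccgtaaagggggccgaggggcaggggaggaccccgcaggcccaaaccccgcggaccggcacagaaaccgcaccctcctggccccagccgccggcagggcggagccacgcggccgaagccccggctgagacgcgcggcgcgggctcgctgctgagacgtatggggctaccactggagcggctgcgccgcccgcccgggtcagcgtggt

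Ube2n, which builds signalling chains rather than degradative ones together with a Ube2v partner, ranged from 8.55 over 8.84 to 9.27 early and from 7.96 over 8.65 to 8.93 late. It fell by 1.24-fold (log2 difference -0.31 ± 0.10 SE, adjusted p = 0.0147), with 5 of 14 late rats below every early rat. Its partner Ube2v2, mentioned after its values were seen, differed by -0.19 ± 0.09 (adjusted p = 0.108). Ube2g2, an enzyme of the degradation of misfolded endoplasmic reticulum proteins, ranged from 9.10 over 9.45 to 9.57 early and from 9.26 over 9.59 to 9.96 late. It rose by 1.14-fold (log2 difference 0.19 ± 0.06 SE, adjusted p = 0.014). In the class-blocked fit neither Ube2n (adjusted p = 0.0991) nor Ube2g2 (adjusted p = 0.079) passed.

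**Figure D3:**
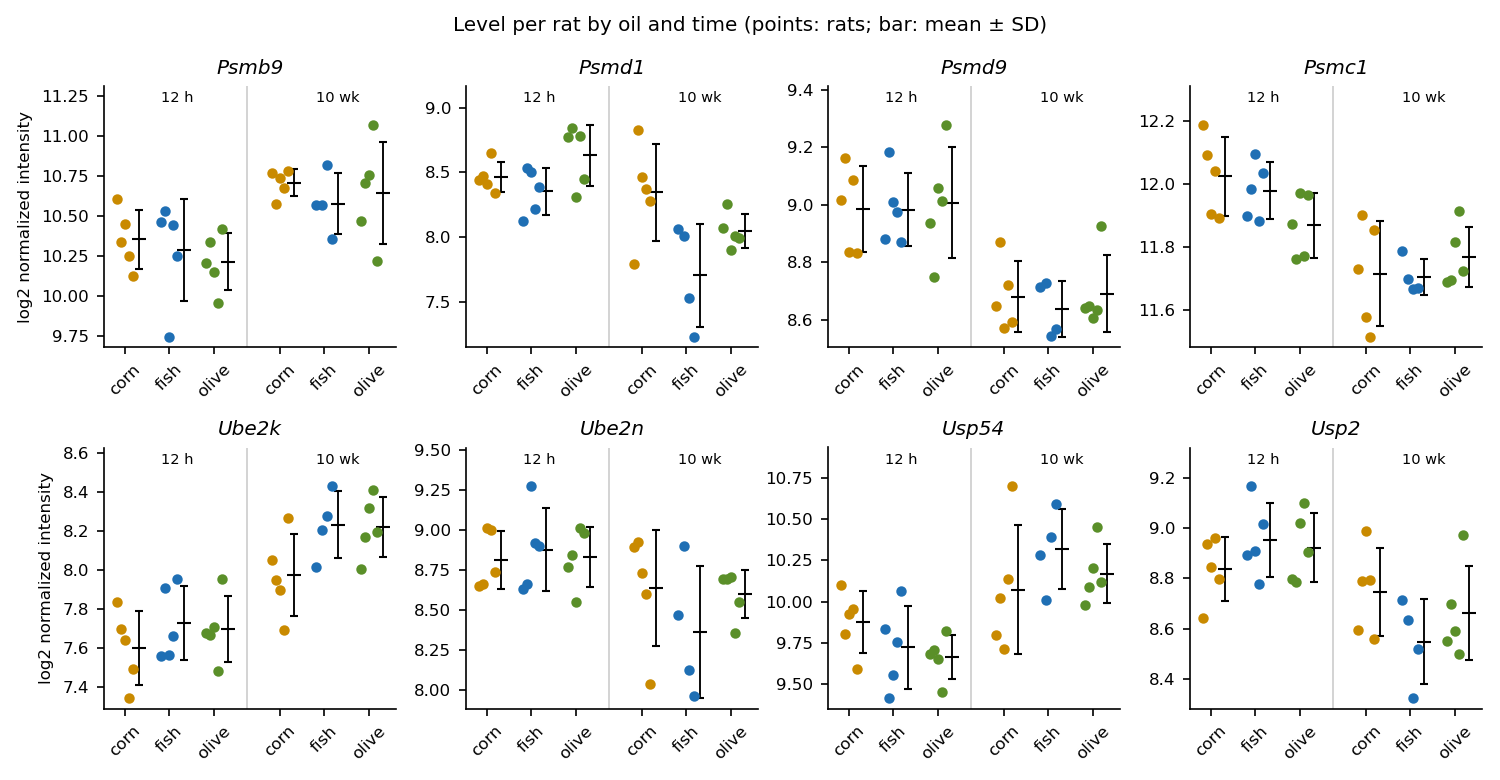
Log2 level of 8 members in each of the 29 rats (points), by oil and time, with the mean and SD of each group. Psmd9, Psmc1, Psmd1, Ube2n and Usp2 lie lower and Psmb9, Ube2k and Usp54 higher at 10 wk on average, and the late fish oil rats reach the lowest Psmd1 values, down to 7.23.

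Neither HECT ligase was called. Ube3b differed by -0.01 ± 0.06 (adjusted p = 0.953) and Ube3c by 0.05 ± 0.06 (adjusted p = 0.52). Of 9 F-box probes 1 rose (background 19.2%) and 1 fell (17.7%). Fbxo6, a receptor that recognises sugar chains on misfolded glycoproteins, ranged from 9.35 over 9.82 to 10.13 early and from 9.22 over 9.58 to 9.69 late. All 14 late rats were below the early mean, and Fbxo6 fell by 1.2-fold (log2 difference -0.26 ± 0.06 SE, adjusted p = 0.00145, -0.19 and 0.0586 in the class-blocked fit). Fbxo9 ranged from 10.69 over 11.01 to 11.26 early and from 10.91 over 11.14 to 11.46 late. Its rise of 0.15 ± 0.06 (adjusted p = 0.0447) was lost when any 1 of 16 rats was left out, and in the class-blocked fit (adjusted p = 0.108).

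The cullins split by probe. The brighter Cul5 probe, for the scaffold of ligases that use SOCS-box receptors, ranged from 9.45 over 9.72 to 9.95 early and from 9.74 over 9.93 to 10.06 late. All 14 late rats were above the early mean, and the probe rose by 1.15-fold (log2 difference 0.20 ± 0.05 SE, adjusted p = 0.00382). It also passed in the class-blocked fit (0.26, adjusted p = 0.0118). The dimmer Cul5 probe, which falls outside the rule for named genes and is given because it disagrees, fell by 0.24 on the log2 scale (SE 0.08, adjusted p = 0.0188), was missing on all 7 large-spot arrays and so in 5 rats, and did not pass in the class-blocked fit (adjusted p = 0.147). No direction for Cul5 as a gene follows from the 2 probes. Cul3, the scaffold that works with Keap1, differed by 0.10 ± 0.05 (adjusted p = 0.169), and Cul4b by -0.11 ± 0.07 (adjusted p = 0.192). Cul1 and the muscle atrophy F-box gene Fbxo32 were not among the members.

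Among 22 deubiquitinase probes 5 were higher, near the background of 19.2% of all probes, and 2 were lower, a smaller share than the background of 17.7%. Of the 22 differences 14 were positive, where 50.5% of all probes were, with a median of 0.08. With class as a block 3 were higher and none lower, 10 of the 22 differences were negative and the median was 0.04. Per rat, the median deviation of these probes ran from -0.16 to 0.06 early and from -0.16 to 0.13 late, so the 2 times overlapped. Usp54 ranged from 9.42 over 9.76 to 10.10 in early rats and from 9.71 over 10.13 to 10.70 in late rats. The mean rose from 9.76 ± 0.20 (SD, n = 15) to 10.18 ± 0.28 (SD, n = 14), by 0.43 ± 0.09 (SE) on the log2 scale or 1.35-fold (adjusted p = 0.000515), with 13 of 14 late rats above the early mean. The class-blocked fit gave 0.43 (adjusted p = 0.00297).

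Usp33, which binds the von Hippel-Lindau protein, ranged from 10.24 over 10.65 to 10.98 early and from 10.44 over 11.02 to 11.23 late, and rose by 1.26-fold (log2 difference 0.34 ± 0.08 SE, adjusted p = 0.00289). Usp36, a nucleolar enzyme, ranged from 8.48 over 8.61 to 8.87 early and from 8.58 over 8.89 to 9.12 late, and rose by 1.17-fold (log2 difference 0.22 ± 0.06 SE, adjusted p = 0.0045). Both overlapped between the times, with 8 and 8 of 14 late rats above every early rat, and neither passed in the class-blocked fit (adjusted p = 0.0921 and 0.0598). Usp14, the deubiquitinase that sits on the proteasome cap and trims chains there, ranged from 11.08 over 11.41 to 11.52 early and from 11.34 over 11.57 to 11.83 late. It rose by 1.14-fold (log2 difference 0.19 ± 0.05 SE, adjusted p = 0.00605), opposite in direction to the cap members that fell, and did not pass in the class-blocked fit (adjusted p = 0.122). On the deposited values 5 deubiquitinase probes were also higher and none lower, with a Usp47 probe in place of Usp14 (adjusted p = 0.104). Usp40 was the fifth to rise, by 0.21 ± 0.05 (adjusted p = 0.00251), and was one of those that passed in the class-blocked fit (0.26, adjusted p = 0.00265). Uchl5, the other deubiquitinase of the cap, was not among the members.

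The brighter probe of Usp2, an enzyme that stabilises fatty acid synthase and Mdm2, ranged from 8.64 over 8.91 to 9.17 early and from 8.32 over 8.61 to 8.99 late. It fell by 1.19-fold (log2 difference -0.25 ± 0.06 SE, adjusted p = 0.0025), with 8 of 14 late rats below every early rat, but the other Usp2 probe gave 0.10 (adjusted p = 0.532). Usp1, which acts on Fancd2 and PCNA in DNA repair, also differed by probe: the dimmer probe fell by 0.35 on the log2 scale (SE 0.11, adjusted p = 0.0124, 2 rats without a value), and the brighter gave -0.06 (adjusted p = 0.705). In the class-blocked fit the adjusted p was 0.113 for the brighter Usp2 probe and 0.548 for the dimmer Usp1 probe. Usp18, an interferon-induced enzyme that removes Isg15 and that was looked at after its value was seen, differed by -0.06 ± 0.15 (adjusted p = 0.773).

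In the class-blocked fit, with rat as a random block, all 24 called probes kept the sign of their difference, and 8 passed. Those 8 were Psmb9, Psmc1, Psmd9, Uba2, Ube2k, the brighter Cul5 probe, Usp40 and Usp54. The fit used the same arrays that gave the calls, so kept signs are no separate support, here or within an oil. In that fit 10 of 94 members passed (10.6%), against 24.7% of all tested probes, and 8 were higher (background 13.5%) and 2 lower (background 11.2%). The 2 members that passed in the class-blocked fit alone were Psmd2 and the dimmer probe of Usp47 (0.42, adjusted p = 0.0433), of which the latter had a log2 difference of 0.43 (adjusted p = 0.0564) without the block. On that probe early olive oil rat 304 lay at 8.17, against an early median of 10.57. The brighter Usp47 probe gave 0.04 without the block (adjusted p = 0.616) and 0.04 with it (adjusted p = 0.77). Within single classes the sign of the fit over all rats was kept by 20 of the 23 probes with a value in large-spot arrays, 19 of 24 in small-ring arrays and 23 of the 23 with a value in large-ring arrays, and among all called probes with a value by 91.3%, 90.0% and 95.8%. Among the called cap members the small-ring arrays reversed Psmc3 (0.24) and Psmc5 (0.12). Only Psmc1 (-0.09), Psmd1 (-0.20), Psmd5 (-0.10), Psmd9 (-0.38), Psmd10 (-0.51) and Psmd11 (-0.51) were below 0 there. The other cap probes ran from 0.00 (Psmc2) to 0.41 (Psmd4), so most cap probes were not lower at 10 wk in that class. All small-ring differences rest on 2 late rats, 136 and 236, both with arrays of high background.

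**Figure D4:**
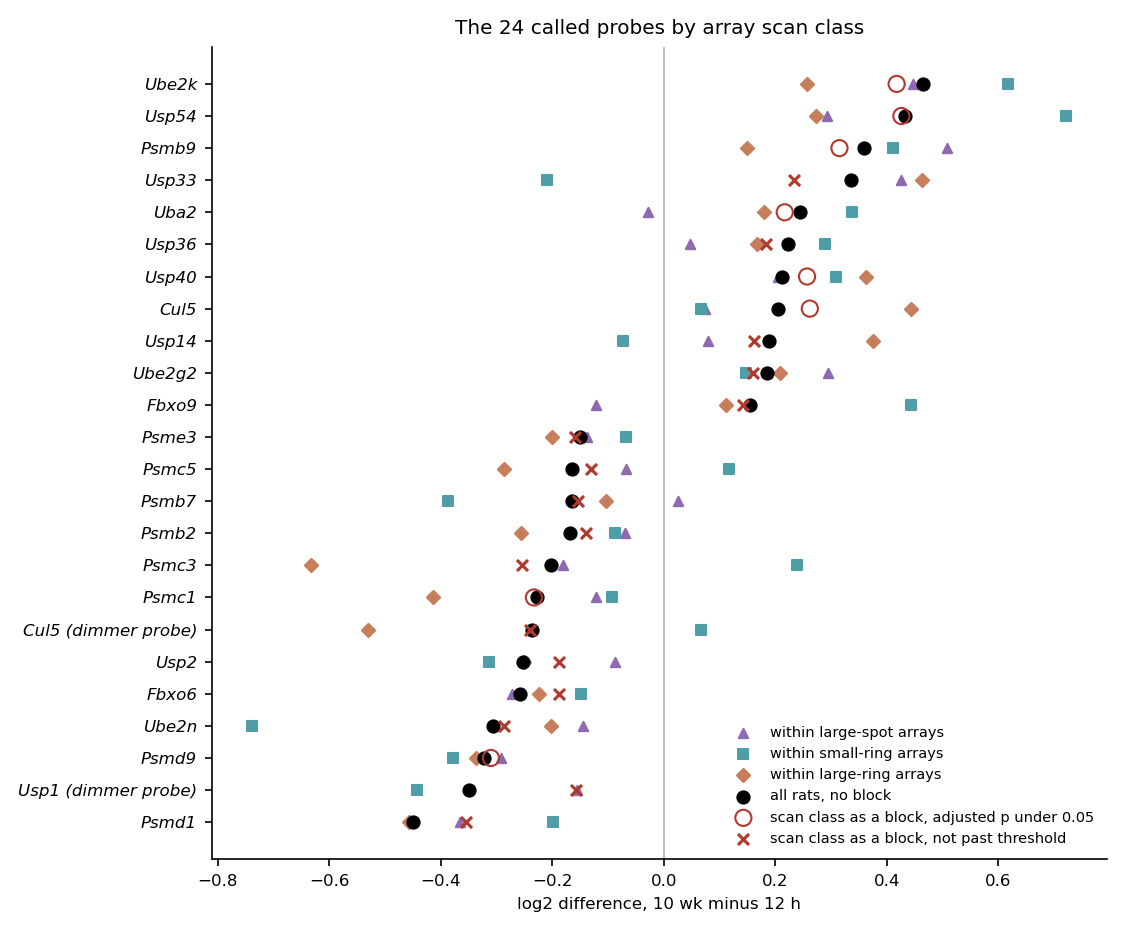
Log2 difference, 10 wk minus 12 h, of the 24 called probes in the fit over all rats, in the class-blocked fit (open circle for an adjusted p under 0.05, cross otherwise) and within each of the 3 scan classes. The class-blocked fit keeps all 24 signs and 8 of the calls. Within the small-ring arrays Usp33 (-0.21), Usp14 (-0.07), Psmc3 (0.24), Psmc5 (0.12) and the dimmer Cul5 probe (0.07) lie on the other side of 0.

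Within single oils fewer members passed. In corn oil rats 1 of 94 members was called, against 3.02% of all tested probes (1.5% higher and 1.52% lower), and it was Psmc1 (a fall, -0.31 ± 0.08 SE, adjusted p = 0.037). In fish oil rats 11 were called, against a background of 12.1%, with 4 higher (background 6.19%) and 7 lower (5.92%). In olive oil rats 9 were called, against 13.4%, with 6 higher (7.85%) and 3 lower (5.5%). Psmd9 fell in fish oil (-0.35 ± 0.10 SE, adjusted p = 0.0276) and in olive oil (-0.32 ± 0.10, adjusted p = 0.0294), and its difference in corn oil was -0.31 (adjusted p = 0.0711). Ube2k rose in fish oil (0.50 ± 0.12, adjusted p = 0.0104) and olive oil (0.52 ± 0.12, adjusted p = 0.00458), with 0.37 in corn oil (adjusted p = 0.0716). Usp54 rose in the same oils, by 0.59 ± 0.16 (adjusted p = 0.0168) and 0.51 ± 0.15 (adjusted p = 0.0268), and differed by 0.20 in corn oil (adjusted p = 0.512). Psmd1 fell by 0.65 in fish oil (SE 0.17, adjusted p = 0.0134) and by 0.58 in olive oil (SE 0.16, adjusted p = 0.0157) on the log2 scale, and differed by -0.12 in corn oil (adjusted p = 0.741). The class-blocked difference of Psmd9 was -0.33 in fish oil and -0.35 in olive oil (adjusted p = 0.0717 and 0.0662), that of Psmd1 -0.58 and -0.39 (0.101 and 0.325), and that of Psmc1 in corn oil -0.23 (0.183), so that none of these calls held. Ube2k and Usp54 passed there in fish oil (0.44 and 0.58, adjusted p = 0.0422 and 0.0311) and not in olive oil (0.38 and 0.42, 0.0937 and 0.15). A call in 1 oil and not in another does not show that the oils differ, and the test of that difference is given with the diet comparisons.

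The other fish oil calls were falls of Usp2 (-0.41, adjusted p = 0.019), Psmb7 (-0.31, 0.0439), Psmc1 (-0.27, 0.0408), Psmb2 (-0.35, 0.0458) and the dimmer Usp1 probe, and rises of Usp40 (0.33, 0.0225) and Usp33 (0.48, 0.0381). These calls moved with single rats. The number of fish oil calls fell to 0 without late rat 236, 2 without late rat 234 and 6 without early rat 203, and rat 236 had arrays of high background. Psmd1 in fish oil had an adjusted p of up to 0.0841, and Ube2k of up to 0.0537, when single fish oil rats were left out. The other olive oil calls were rises of Uba2 (0.38, adjusted p = 0.0446), Usp14 (0.26, 0.0458), Psmb9 (0.43, 0.0437) and Ube2f and a fall of Fbxo6 (-0.40, 0.00939). Of the 9 olive oil calls, those of Psmd1, Fbxo6 and Ube2k held whichever olive oil rat was left out, with adjusted p-values of at most 0.0474, 0.0311 and 0.0178, but all 3 were lost in the class-blocked fit (adjusted p = 0.325, 0.121 and 0.0937). The olive oil calls numbered 3 without late rat 334 or 335, 4 without early rat 304 or 305 and 5 without early rat 302. The class-blocked fit kept the sign of every call within an oil, but of the calls themselves it kept 0 of 1 in corn oil, 3 of 11 in fish oil (Ube2k, Usp40 and Usp54) and 1 of 9 in olive oil (Ube2f). It added Ube2k in corn oil and a Usp47 probe in olive oil, and it called 5.27%, 8.09% and 7.16% of all tested probes in the 3 oils.

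Ube2f, which conjugates NEDD8 to cullins, was called in olive oil rats, with 2 early rats far below the rest. At 12 h the olive oil rats had log2 levels of 11.18, 9.33, 8.89, 11.22 and 11.26, and at 10 wk 11.22, 11.21, 11.31, 11.27 and 11.38. Rats 302 and 304 were thus the low ones, and the other 3 early rats lay within or just below the late range. The difference was 0.90 ± 0.29 (SE, adjusted p = 0.0397), it ranged from 0.53 to 1.12 when single olive oil rats were left out, and the call was lost in 7 of those 10 fits. It also passed with class as a block (0.91, adjusted p = 0.0374).

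**Figure D5:**
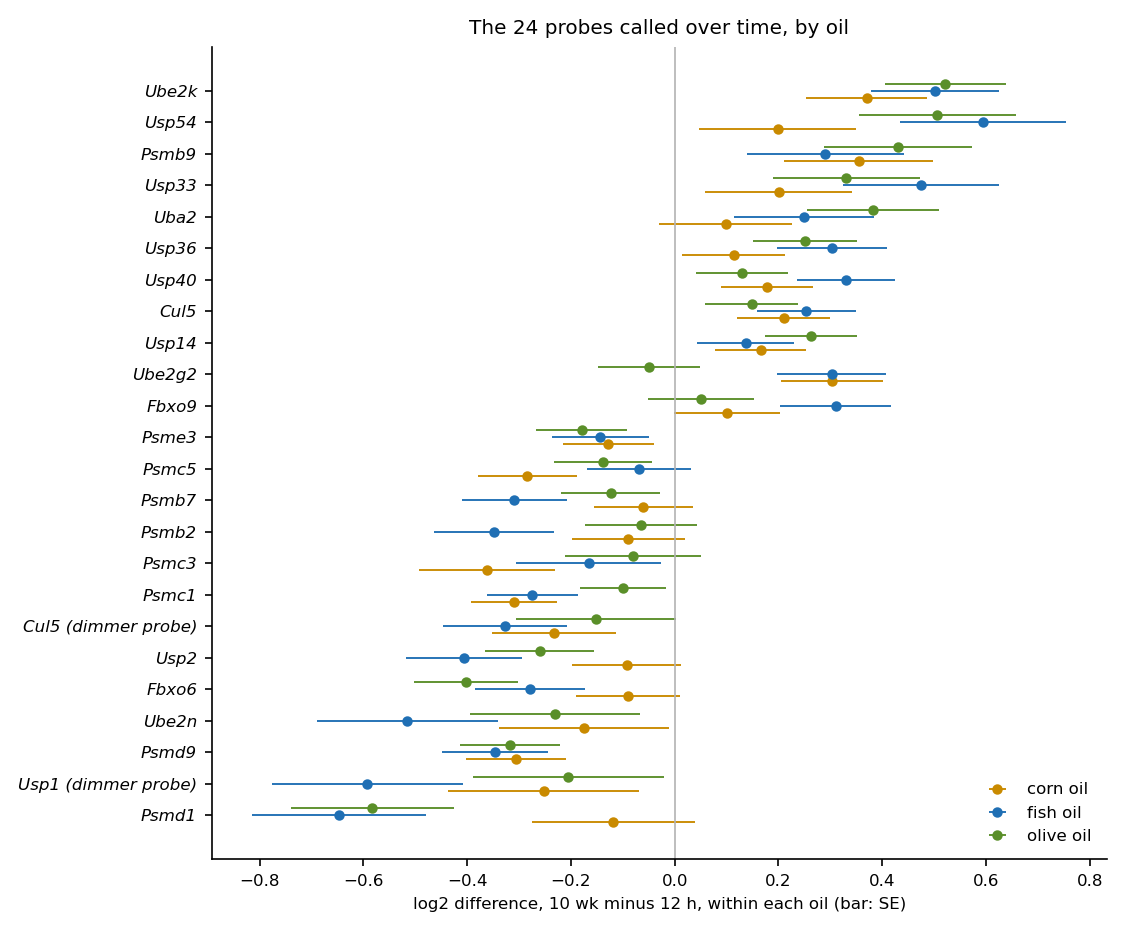
Log2 difference, 10 wk minus 12 h, of the 24 called probes within the rats of each oil, with SE bars. For 23 of the 24 probes all 3 oils lie on the same side of 0, and for Psmd1 the corn oil value of -0.12 is nearer to 0 than those of the other oils, -0.65 and -0.58.

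Over the 94 tested members 49 (52.1%) had differences of 1 sign in all 3 oils, 21 up and 28 down, against 59.7% of all tested probes. Of all 6381 tested probes 1977 were up in all 3 oils and 1834 down. Of the 16 cap probes 9 were down in all 3 oils and 1 up, and of the 22 deubiquitinase probes 10 were up in all 3 and 4 down. Of the 14 core probes 5 were down in all 3 oils and 1, Psmb9, was up. Among the 24 called probes 23 had 1 sign throughout (95.8%), against 97% of all probes called over time. The exception was Ube2g2, with 0.30 in corn oil, 0.30 in fish oil and -0.05 in olive oil (adjusted p = 0.078, 0.0559 and 0.766).

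Whether the oils differed was asked at each time, over both times and as an interaction with time. No member passed limma's F test over the 3 oils at 12 h, at 10 wk or for the interaction, and neither did any probe of the array (0% called in each). At an unadjusted p under 0.05 the members numbered 12 at 12 h (12.8%, against 9.39% of all probes), 4 at 10 wk (4.26% against 6.46%) and 1 for the interaction (1.06% against 4.07%). The lowest adjusted p among members was 0.434, 0.332 and 0.938. A model with array quality weights called 8 members at 12 h (8.51%), against 6.97% of all probes. The oil comparisons at 12 h also compare scan classes, because the large-spot arrays were mostly those of olive oil rats.

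Usp28, which stabilises Myc and opposes Fbxw7, had the lowest p among members at 12 h. The early olive oil rats had log2 levels of 10.52, 10.48, 9.04, 10.92 and 9.03, and the 3 high rats were those read with large spots. Early corn oil rats lay between 8.60 and 8.89, and early fish oil rats between 8.60 and 10.01, with rat 202, which had 1 large-spot array, the highest. The olive oil minus corn oil difference was 1.24 (95% interval 0.50 to 1.98, adjusted p = 0.307). Over single arrays Usp28 was between 10.27 and 10.92 on the 7 large-spot arrays and between 8.53 and 9.45 on the 34 others with a value (2 had none), with no overlap and whatever the oil or time. Fbxo7 and Ube3b, found by looking for such members, were lower on every large-spot array than on any other: Fbxo7 at 9.47 to 9.83 against 9.87 to 10.62, and Ube3b at 9.96 to 10.23 against 10.27 to 10.76. These 3 are 3.19% of the 94 tested members, and 0.705% of all tested probes were separated in the same way.

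Ube2f and Psma1 had the next lowest p-values at 12 h. Ube2f was lower in olive oil than in corn oil rats by a log2 difference of -0.96 (95% interval -1.56 to -0.36, adjusted p = 0.326), with rats 302 and 304 as described. Psma1, an alpha ring subunit, differed between fish oil and corn oil by -0.32 (95% interval -0.52 to -0.12, adjusted p = 0.378).

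At 10 wk the 3 lowest p-values were those of Psmd1, Psmb2 and Usp40. Psmd1 differed between fish oil and corn oil rats by -0.64 (95% interval -0.98 to -0.30), with an adjusted p of 0.104, and between olive oil and corn oil rats by -0.30 (95% interval -0.62 to 0.02, adjusted p = 0.999). The large ring, where Psmd1 had its lowest median (8.01), was read in 7 of 8 late fish oil arrays and 4 of 8 late corn oil arrays. The lowest Psmd1 value, 7.23, was that of fish oil rat 236, which had arrays of high background. The part of scan class and background was not tested. Psmb2 differed between fish oil and olive oil by -0.40 (95% interval -0.63 to -0.16, adjusted p = 0.57). Usp40 differed between fish oil and olive oil by 0.25 (95% interval 0.05 to 0.44, adjusted p = 0.883). In the 6 pairwise comparisons no member passed, and among all probes 4 did for fish oil against corn oil at 10 wk (0.0627%) and 0 in the other 5. At an unadjusted p under 0.05 the members in these pairs numbered 9 (fish oil and corn oil), 8 (olive oil and corn oil) and 12 (fish oil and olive oil) at 12 h, and 8, 1 and 3 at 10 wk. For the interaction the lowest p-values were those of Ube2g2, Ube2f and Psmd1, all with an adjusted p of at least 0.938.

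Fish oil against the mean of the other oils, over both times, was the oil comparison with the most calls over the array, 39 probes or 0.611%. No member was among them by limma, while 20 members had an unadjusted p under 0.05 (21.3%, against 12.7% of all probes). Of the 94 members 60 (63.8%) were lower in fish oil rats, where 48.2% of all probes were. In the core 11 of 14 probes were lower, with a median of -0.13, and in the cap 14 of 16, with a median of -0.05. Psmd1 differed by -0.34 ± 0.10 (SE, adjusted p = 0.111), Psmb2 by -0.22 ± 0.07 (adjusted p = 0.141) and the lid subunit Psmd12 by -0.19 ± 0.06 (adjusted p = 0.142). This comparison takes in the same late fish oil arrays, mostly of the large ring, and the part of scan class was not tested. For Psmd12 the early fish oil rats had 10.21, 10.13, 9.90, 10.28 and 10.39 and the late ones 10.16, 10.25, 10.02 and 10.21, and the other oils ranged from 10.08 to 10.58, so the groups overlapped.

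Genes around the members were followed through 3 fixed lists. Of 80 other genes of ubiquitin, related modifiers and proteasome handling, 41 were on the array and 37 tested, of which 7 rose and 5 fell over time, with a median of 0.01. These are 18.9% and 13.5%, against 19.2% and 17.7% of all tested probes. Of the 7 rises 5, and of the 5 falls none, passed in the class-blocked fit. The largest rises that passed were those of Syvn1, the ligase of endoplasmic reticulum degradation (0.59, adjusted p = 0.000975, and 0.0395 in the class-blocked fit), Sumo3, a SUMO protein (0.42, 0.0244 and 0.0224), and Smurf2, a HECT ligase of TGF-beta signalling (0.36, 0.00942 and 0.0631). The largest falls that passed were those of the deubiquitinase Atxn3 (-0.37, adjusted p = 0.00218), the ligase Cblb (-0.22, adjusted p = 0.0493) and the deubiquitinase Otub1 (-0.19, adjusted p = 0.00715). The class-blocked difference of Atxn3 was -0.13 (adjusted p = 0.343), that of Cblb -0.26 (0.0571) and that of Otub1 -0.17 (0.085). Nfe2l1, the factor known to raise proteasome subunit genes when the proteasome is impaired, differed by 0.06 (adjusted p = 0.38). Nfe2l2, the factor of the antioxidant response, differed by 0.08 (adjusted p = 0.557). With class as a block Nfe2l1 differed by -0.05 (adjusted p = 0.609) and Nfe2l2 by 0.19 (adjusted p = 0.232).

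The antigen presentation and interferon list, the usual company of Psmb9, had 15 of its 25 genes on the array and 14 tested, of which 3 fell (21.4%, background 17.7%) and none rose (19.2%). These were the interferon-induced chemokines Cxcl10 (-1.80, adjusted p = 4.09e-06) and Cxcl11 (-1.26, adjusted p = 1.95e-08), and Ifit3 (-0.36, adjusted p = 0.0407), and all 3 also passed in the class-blocked fit. Their sign was opposite to that of Psmb9. Tap1, the peptide transporter gene next to Psmb9 in the major histocompatibility complex, differed by 0.19 (adjusted p = 0.151). Irf1, a factor known to drive Psmb9, differed by -0.015 (adjusted p = 0.897). With class as a block Tap1 differed by -0.01 (adjusted p = 0.978) and Irf1 by 0.09 (adjusted p = 0.458).

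Markers of other cell types also differed between the times. Of 9 T and NK cell markers 4 were on the array and 2 tested, and Gzmb fell by 0.98 on the log2 scale (adjusted p = 2.78e-05), with Prf1 at the floor in most rats and a summed level of 540 to 1094 early and 495 to 750 late. Of 6 smooth muscle markers 4 were on the array and tested, and Myh11 (0.59, adjusted p = 0.00487), Tagln (0.48, adjusted p = 0.0224) and Smtn (0.30, adjusted p = 0.00682) rose, with sums of 663 to 1555 early and 882 to 2116 late. Col1a1, a fibroblast marker, fell (-0.23, adjusted p = 0.0492) with sums of 384 to 780 and 402 to 594. Of the 2 tested enteroendocrine markers, Gcg rose (0.29, adjusted p = 0.0457), while the brighter Chgb differed by -0.13 and was not called (adjusted p = 0.327). Their sums ran from 3522 to 6627 early and from 3547 to 6639 late. Of the 6 called markers Tagln (adjusted p = 0.163) and Col1a1 (adjusted p = 0.14) did not pass in the class-blocked fit. Neither tested colonocyte marker was called, and those of B cells, macrophages, endothelium and goblet cells were not called either. The part of these cell types in the changes of the members was not tested.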

How the data were processed

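Total RNA of the colonic mucosa of 29 rats was hybridised to 43 one-colour CodeLink arrays of 8452 probes, with biotin-labelled cRNA detected by fluorescent streptavidin, per the labels' protocols. The spot mean and background median used here are linear intensities of the scanner, deposited without normalization, with a missing spot coded -9999 per the file headers and values, by software not given in the sources used here. The deposited raw intensity is the spot mean minus the background except on probes that hold 1 constant on all arrays of a diet, which touches 5 of the 24 called probes. These 5 are Psmb9, the brighter Psmb2 and Usp2 probes and the dimmer Cul5 and Usp1 probes. The deposited normalized intensity is the authors' own scaling and served as an alternative. The deposited signal strength is a score of signal relative to noise, used only to say which spots stood above noise.

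Intensities were background corrected (normexp, offset 50), quantile normalized, floored at the 10th percentile (log2 level 6.46) and put on the log2 scale, and repeat arrays were averaged per rat. Probes above the 30th percentile (7.66) in 4 rats or more were tested, 6381 in all (75.5%). One limma model (version 3.58.1, R 4.3.3) over the 6 groups, with 23 residual degrees of freedom, gave all contrasts, and p-values were adjusted by Benjamini-Hochberg over all 6381 probes. The fit was also run on simulated data with independent noise and no scan classes, which says nothing about the part of scan class. Scan class was set as spots wider than 18 pixels (large spots), or otherwise a background area under 450 pixels (small ring) or not (large ring); its fit used all arrays with rat as a random block. Gene names come from the platform annotation, in which 6252 probes have 1 symbol, 75 several and 2125 none. Promoters are RefSeq's (GRCr8).

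The brightest probe stands for a gene. Named genes are, per role, the 3 largest rises and falls past the threshold over time, a fixed set of proteasome, ligase and deubiquitinase genes, up to 8 calls within an oil and the 3 lowest p-values of the diet tests; others are said to be chosen after their values were seen. The members and lists were chosen with earlier results of these data known. The replicates are rats, so differences were judged against the spread between rats, which also holds differences between arrays and scan classes. The number of rats limits the precision. The closest arrays of different rats differed by a root mean square of 0.171 (log2), so no array was a copy of another rat's.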

Additional observations from a re-analysis of the deposited data

Results flagged for a closer look

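Of the 150 groups of 4 or 5 rats examined for 25 named genes, 9 held 1 rat that stood far from the others of its group, where chance gives about 1 in 20. All values are log2 levels. Late olive oil rat 336 was high for Psmd9, at 8.93 against 8.61 to 8.65 in the other rats, and for Fbxo9, at 11.31 against 11.07 to 11.14. Late corn oil rat 134, whose array was read with large spots, was low for Uba2, at 10.81 against 11.36 to 11.58, and high for Ube2g2, at 9.96 against 9.58 to 9.63. Late corn oil rat 131 was low for Fbxo6, at 9.51 against 9.67 to 9.69. Early fish oil rat 205 was high for Psme3, at 9.94 against 9.50 to 9.62. Early olive oil rat 305, also read with large spots, was low for Cul5, at 9.53 against 9.77 to 9.85, and late fish oil rat 234 was high for Cul5, at 10.06 against 9.92 to 9.93. Early corn oil rat 102 was low for Usp14, at 11.08 against 11.38 to 11.47.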

How the results depend on the processing

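No paired analysis was possible because rat numbers differ between the groups and the repeat numbers mark arrays of 1 rat. Against 11 higher and 13 lower members over time, the deposited values gave 9 and 1, the same without constant probes 9 and 2, and the fit with scan class as a block 8 and 2. Single classes gave 0 and 0 (large spots), 5 and 3 (small ring) and 5 and 8 (large ring), with fewer rats in each. Corn oil calls (1) were 0 with median scaling or with rat as a random block, 3 with the first array of each rat or without high background arrays and 2 with quality weights. Fish oil calls (11) were 1 on either form of the deposited values, 7 with a stricter filter, 6 with quality weights and 3 with the scan class block. Olive oil calls (9) were 0 on either form of the deposited values, 33 with quality weights and 2 with the block. Quality weights gave 8 members for diets at 12 h, 1 for fish oil against both others and 9 for the pairs; the deposited values gave 1 for diets at 10 wk, 2 for fish oil and 2 for the pairs, or 1 pair without constant probes. Leaving out each rat gave 10 to 14 higher, 10 to 16 lower, 0 to 1 in corn oil (0 without 102, 103, 105, 131, 134 or 135), 0 to 13 in fish oil and 3 to 10 in olive oil, 0 to 0 for the tests of diets at 12 h, at 10 wk and the interaction, 0 to 1 for fish oil against others (1 without 131 or 233) and 0 to 2 for the pairs (2 without 306, 1 without 131, 232 or 233). Among the 25 named genes, signs reversed for Psmb7 (0.0254), Uba2 (-0.0279) and Fbxo9 (-0.121) in large-spot arrays. They also reversed for Usp33 (-0.209) and Usp14 (-0.0736) in small-ring arrays, Psme2 with the block (-0.0006) and Cul5 as the mean of its probes (-0.0646). Over the 25 named genes and all settings but left-out rats, 359 values kept direction and side of the threshold, 41 lost the call, 15 untested ones moved and 7 reversed. The cause was not tested in any of these. Brightness also limits what can be said, since 8 members were too dim to test.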
